A study of Mus musculus with 4 samples.

Results

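Tcf4, Mlec, Ppp2ca, Marcks, Elk4 and Etnk1 are 6 mouse genes whose 3' UTRs gave many small RNA sequences in the wild type (WT) spleen. They were chosen by their number of WT spleen sequences and by whether the MIWI2 KO spleen list held any, with those values known. Their counts are therefore a description and carry no test. The data are 4 lists of distinct small RNA sequences, each from 1 library of adult C57BL/6 tissue: WT spleen, MIWI2 KO spleen, WT liver and MIWI2 KO liver. Each was deposited as the sequences in the somatic 3' UTR clusters the authors called in the WT tissue, and from 98.9% to 99.6% of a list lay in those regions. The lists give no read number, position or gene. A sequence was taken as a member when at least 50% of it lay in a GENCODE M1 3' UTR of one of the 6 genes, after placement on NCBIM37 with at most 1 mismatch. This gave 126 of 7845 listed sequences: 103 of 2634 in WT spleen, 7 of 378 in MIWI2 KO spleen, 14 of 4273 in WT liver and 2 of 560 in MIWI2 KO liver. With 1 library per tissue and genotype there is no replicate check on any difference between lists.

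MIWI2, encoded by Piwil4, is a PIWI protein that binds piRNAs in the fetal and neonatal male germ line and takes part in silencing of retrotransposons. The 3' UTR of an mRNA is the stretch after the stop codon, up to the poly(A) site, and holds binding sites for microRNAs and RNA-binding proteins. Small RNAs can also come from the 3' UTR itself, as a class of germ line piRNAs does. The mice of the KO libraries were Miwi2-/- in all their cells, and the number of mice behind each library is not given in the sources used here. Piwil4 itself had 0 sequences in each of the 4 lists and no cluster in either tissue, so the lists do not check the genotype.

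The 6 genes have different functions. Tcf4 encodes an E protein, a basic helix-loop-helix transcription factor with a role in B cells and plasmacytoid dendritic cells. Elk4 encodes an ETS transcription factor that forms a ternary complex with serum response factor on DNA. Marcks encodes a substrate of protein kinase C that lies at the plasma membrane and binds actin. Ppp2ca encodes the alpha catalytic subunit of protein phosphatase 2A. Etnk1 encodes ethanolamine kinase, which carries out the first step of phosphatidylethanolamine synthesis from ethanolamine. Mlec encodes malectin, a lectin of the endoplasmic reticulum that binds glucosylated N-glycans.

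The sequences below show what the lists hold at these genes, read 5' to 3' in the direction of the mRNA. Capitals mark bases that differ from the genome. The first set starts at the 5' end with the most WT spleen sequences of each gene, or, where no 5' end was shared, at the first 5' end along the 3' UTR. The set holds no Tcf4 sequence. At Etnk1 (chr6, plus strand), 2 WT spleen sequences start at position 143155733.
Etnk1 chr6:143155733-143155754: ttcagtgacacgttacagaatA
Etnk1 chr6:143155733-143155756: ttcagtgacacgttacagaatgaA
Mlec chr5:115597829-115597856, minus strand: aatcttcacagtgtttaggaaaagagaa
Ppp2ca chr11:51935469-51935496, plus strand: tcctgtaatgaaaatgtaaacttgtaca
Marcks chr10:36855821-36855847, minus strand: actggttttggagaacttgtctacaaA
Elk4 chr1:133920540-133920564, plus strand: ttggatgttaggaccctttggccaA

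The second set, picked after the values were seen, shows 5' ends of Elk4 (chr1, plus strand) that recur within a list or between lists. The first 3 are from WT spleen and start at neighbouring bases, and the WT liver sequence shares its 5' end with the second of them.
WT spleen chr1:133922023-133922052: aaactaagtaagtattgatagacgacctaa
WT spleen chr1:133922024-133922053: aactaagtaagtattgatagacgacctaaA
WT spleen chr1:133922025-133922052: actaagtaagtattgatagacgacctaa
WT liver chr1:133922024-133922045: aactaagtaagtattgatagaA
The last pair shares its 5' end between the genotypes and differs in the last bases.
WT spleen chr1:133929118-133929139: tctgtcgttagagacgtgcaaA
MIWI2 KO spleen chr1:133929118-133929139: tctgtcgttagagacgtgcaTc

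Every sequence is listed as the plus strand of the genome reads, whatever the strand of the gene, so the RNA strand had to be set by the gene. The mismatches gave a check of this choice. Of the 126 member sequences, 52 matched the genome exactly and 74 had 1 mismatch. Of these 74, the mismatch was at the last base in the direction of the gene in 60, and that base was an A in all 60. It was at the first base in 0 of the 126. Most of the other 14 mismatches were at the base before the last. The 2 genes on the minus strand, Mlec and Marcks, gave 14 unmatched last bases and 0 unmatched first bases among 29 sequences, and the 4 genes on the plus strand gave 46 and 0 among 97. Whether the terminal A was on the RNA or was left by the removal of the 3' adapter was not tested. It counts in each listed length, so the RNA may be shorter by 1 nt than the length given. Where the base before the last is unmatched, the RNA may be shorter by more than this.

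The genes were grouped as having long 3' UTR clusters. The cluster regions of 5 of them were longer than the median region, and that of Ppp2ca was not. Among 338 genes with at least 3 WT spleen sequences, the median annotated 3' UTR was 2194 nt in its longest isoform. Ppp2ca had the longest of the 6, with 5807 nt, followed by Etnk1 with 5089 nt, Mlec with 4937 nt, Tcf4 with 4898 nt, Marcks with 2868 nt and Elk4 with 1876 nt. Elk4 therefore lay below the median, at percentile 42.0 of these genes, although a second annotated piece brought its total to 2925 nt.

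The regions that the authors called as clusters had another order. In spleen the region of Elk4 was 10357 nt, that of Etnk1 9543 nt, that of Mlec 5771 nt, that of Tcf4 4891 nt and that of Marcks 3932 nt. The Ppp2ca region was 775 nt, which was at percentile 7.25 of the 345 spleen regions, whose median was 2341 nt. The Etnk1 region ran 4457 nt past the annotated 3' end, that of Elk4 1396 nt, that of Marcks 1067 nt and that of Mlec 837 nt. The Tcf4 region ended at the annotated end.

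The WT spleen counts ran from 7 to 30. Etnk1 had 30 sequences, Tcf4 21, Elk4 19, Mlec and Marcks 13 each, and Ppp2ca 7. The median over the 338 genes was 4. In shares of the WT spleen list with exact 95% Clopper-Pearson intervals, Etnk1 made up 1.14% (0.770 to 1.62), Tcf4 0.797% (0.494 to 1.22), Elk4 0.721% (0.435 to 1.12), Mlec and Marcks 0.494% each (0.263 to 0.843), and Ppp2ca 0.266% (0.107 to 0.547). Intervals here cover counting error only. Those of neighbours in this order overlapped, and only the intervals of Etnk1 and Ppp2ca lay apart. Per kb of annotated 3' UTR the order changed, to 6.50 sequences in Elk4, 5.90 in Etnk1, 4.53 in Marcks, 4.29 in Tcf4, 2.63 in Mlec and 1.21 in Ppp2ca, against a median of 2.13 over the 338 genes. The density of Ppp2ca lay below that median, but it is taken over the whole annotated 3' UTR of 5807 nt. The authors' region of Ppp2ca was 775 nt, and sequences outside such regions were seldom listed. Its low density is therefore not a low density within that region.

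In the MIWI2 KO spleen list Elk4 had 4 sequences and Etnk1 3. Tcf4, Mlec, Ppp2ca and Marcks had 0. Of the 338 genes with at least 3 WT spleen sequences, 61.5% had no MIWI2 KO spleen sequence, and the 4 of 6 here are part of how the genes were chosen, so nothing is read from them.

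Depth limits what a count of 0 shows. The MIWI2 KO spleen list is 0.144 times as long as the WT list, and the library gave 25218 uniquely aligned distinct sequences against 129176, which is 0.195 times as many. A count of 0 was taken to allow up to 3 sequences, which is a share of 0.794% of the MIWI2 KO spleen list. The WT shares of Mlec, Marcks and Ppp2ca were below this limit, and that of Tcf4, at 0.797%, was next to it. Per 100000 uniquely aligned distinct sequences the limit was 11.9. Tcf4 in WT spleen had 16.3 (10.1 to 24.9) on this scale, Mlec and Marcks 10.1 each (5.36 to 17.2) and Ppp2ca 5.42 (2.18 to 11.2). For Mlec, Marcks and Ppp2ca, a lower level in MIWI2 KO spleen was therefore not detectable at this depth on either scale. The Tcf4 rate lay above the limit on this scale, and its interval included the limit.

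For the 2 genes with MIWI2 KO spleen sequences, the intervals of the ratio to WT were wide. The genes were chosen on these counts, so the ratios are a description. That the intervals included 1 is no test. Elk4 made up 1.06% of the MIWI2 KO list (0.289 to 2.69), and the ratio to its WT share was 1.47 (0.363 to 4.41). Etnk1 made up 0.794% (0.164 to 2.30), with a ratio of 0.697 (0.136 to 2.24). Scaled to the uniquely aligned sequences the ratios were 1.08 for Elk4 and 0.512 for Etnk1. These ratios are for the annotated 3' UTRs. In the authors' region Elk4 had 41 WT spleen sequences in place of 19, and still 4 in MIWI2 KO spleen. The Elk4 ratio there was therefore lower, and lay below 1 on either scale.

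**Figure D1:**
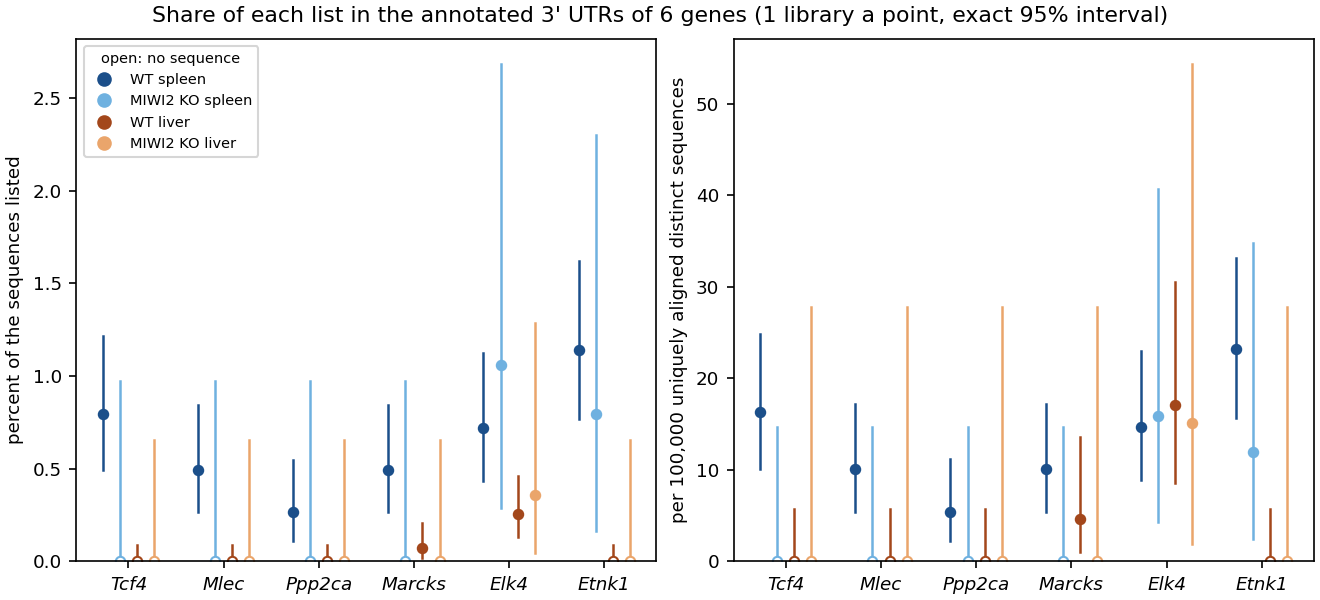
Share of each list (left, percent of the sequences listed) and rate per 100,000 uniquely aligned distinct sequences (right) for the annotated 3' UTRs of the 6 genes. Each point is 1 library with its exact 95% interval, and open points are counts of 0. The WT spleen points run from 0.266% in Ppp2ca to 1.14% in Etnk1, and the MIWI2 KO spleen intervals overlap the WT spleen intervals in every gene. The genes were chosen on the spleen counts, so this overlap is no test.

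In liver, 2 of the 6 genes had sequences. Elk4 had 11 in WT and 2 in MIWI2 KO, and Marcks had 3 in WT and 0 in MIWI2 KO. The WT liver shares were 0.257% for Elk4 (0.129 to 0.460) and 0.0702% for Marcks (0.0145 to 0.205). Tcf4, Mlec, Ppp2ca and Etnk1 had 0 of 4273 WT liver sequences, which allows a share of up to 0.0702%. Of the 338 genes with at least 3 WT spleen sequences, 15.4% had 1 or more in WT liver. A count of 0 in the liver lists does not show that the gene gave no small RNA in liver, since 4250 of the 4273 WT liver sequences lay in regions that passed the authors' minimum of 3 sequences and their density limits. Elk4 and Marcks are the 2 of these genes with a liver region. In tissue, fewer cells that express a gene and less RNA per cell cannot be told apart.

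Per 100000 uniquely aligned sequences, the rates of Elk4 within its annotated 3' UTR lay close together in all 4 libraries. They were 14.7 in WT spleen (8.86 to 23.0), 15.9 in MIWI2 KO spleen (4.32 to 40.6), 17.0 in WT liver (8.50 to 30.5) and 15.1 in MIWI2 KO liver (1.82 to 54.4). All 4 intervals overlapped, which is no test, since the spleen counts were used to choose the genes. In the authors' regions the Elk4 count rose to 41 in WT spleen and 27 in WT liver and stayed at 4 in MIWI2 KO spleen. The rates there therefore lay further apart. Marcks had 10.1 in WT spleen and 4.65 in WT liver (0.958 to 13.6), which also overlapped.

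The labelled tissues could be checked on the liver side only. Of 10 markers of liver, Alb, Ahsg, Fgb, Scd1 and Hnf4a had sequences in the WT liver list, 279 in all, and 4 of them in the MIWI2 KO liver list, where Hnf4a had 0. None of the 10 had a sequence in either spleen list. For MIWI2 KO spleen this does not check the label, since nearly all of that list lay in regions called in WT spleen. None of the 10 had such a region. Of the markers of blood and immune cells in spleen, Ptprc, Cd74, Cd79a, Cd79b, Cd3e and Lyz2 had 0 sequences in each of the 4 lists.

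The sequences of 5 of the genes lay scattered over most of the annotated 3' UTR, and those of Ppp2ca lay at its start. Positions are counted in nt from the first base of the largest annotated piece, in the direction of the mRNA. In this annotation the 3' UTR includes the stop codon. The Tcf4 sequences (chr18:69842731-69847621, plus strand) began between nt 184 and 4709 of 4891, with 18 of 21 before the midpoint. Those of Mlec (chr5:115592990-115597926, minus strand) began between nt 71 and 4913 of 4937, with 6 of 13 before the midpoint. Those of Etnk1 (chr6:143151974-143157062, plus strand) began between nt 37 and 5067 of 5089, with 19 of 30 before the midpoint. Those of Marcks (chr10:36853049-36855916, minus strand) began between nt 70 and 2424 of 2868, with 8 of 13 before the midpoint.

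The 7 Ppp2ca sequences (chr11:51935474-51941280, plus strand) began between 5 nt before the first base of the 3' UTR and nt 615 of 5807. The last of them ended at nt 638, so that 5169 nt of the annotated 3' UTR held no listed sequence. The authors' region of 775 nt held 6 of the 7 whole and most of the first. Of the 2634 WT spleen sequences, 2624 lay in such regions, so a sequence further along the Ppp2ca 3' UTR would seldom have been listed.

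**Figure D2:**
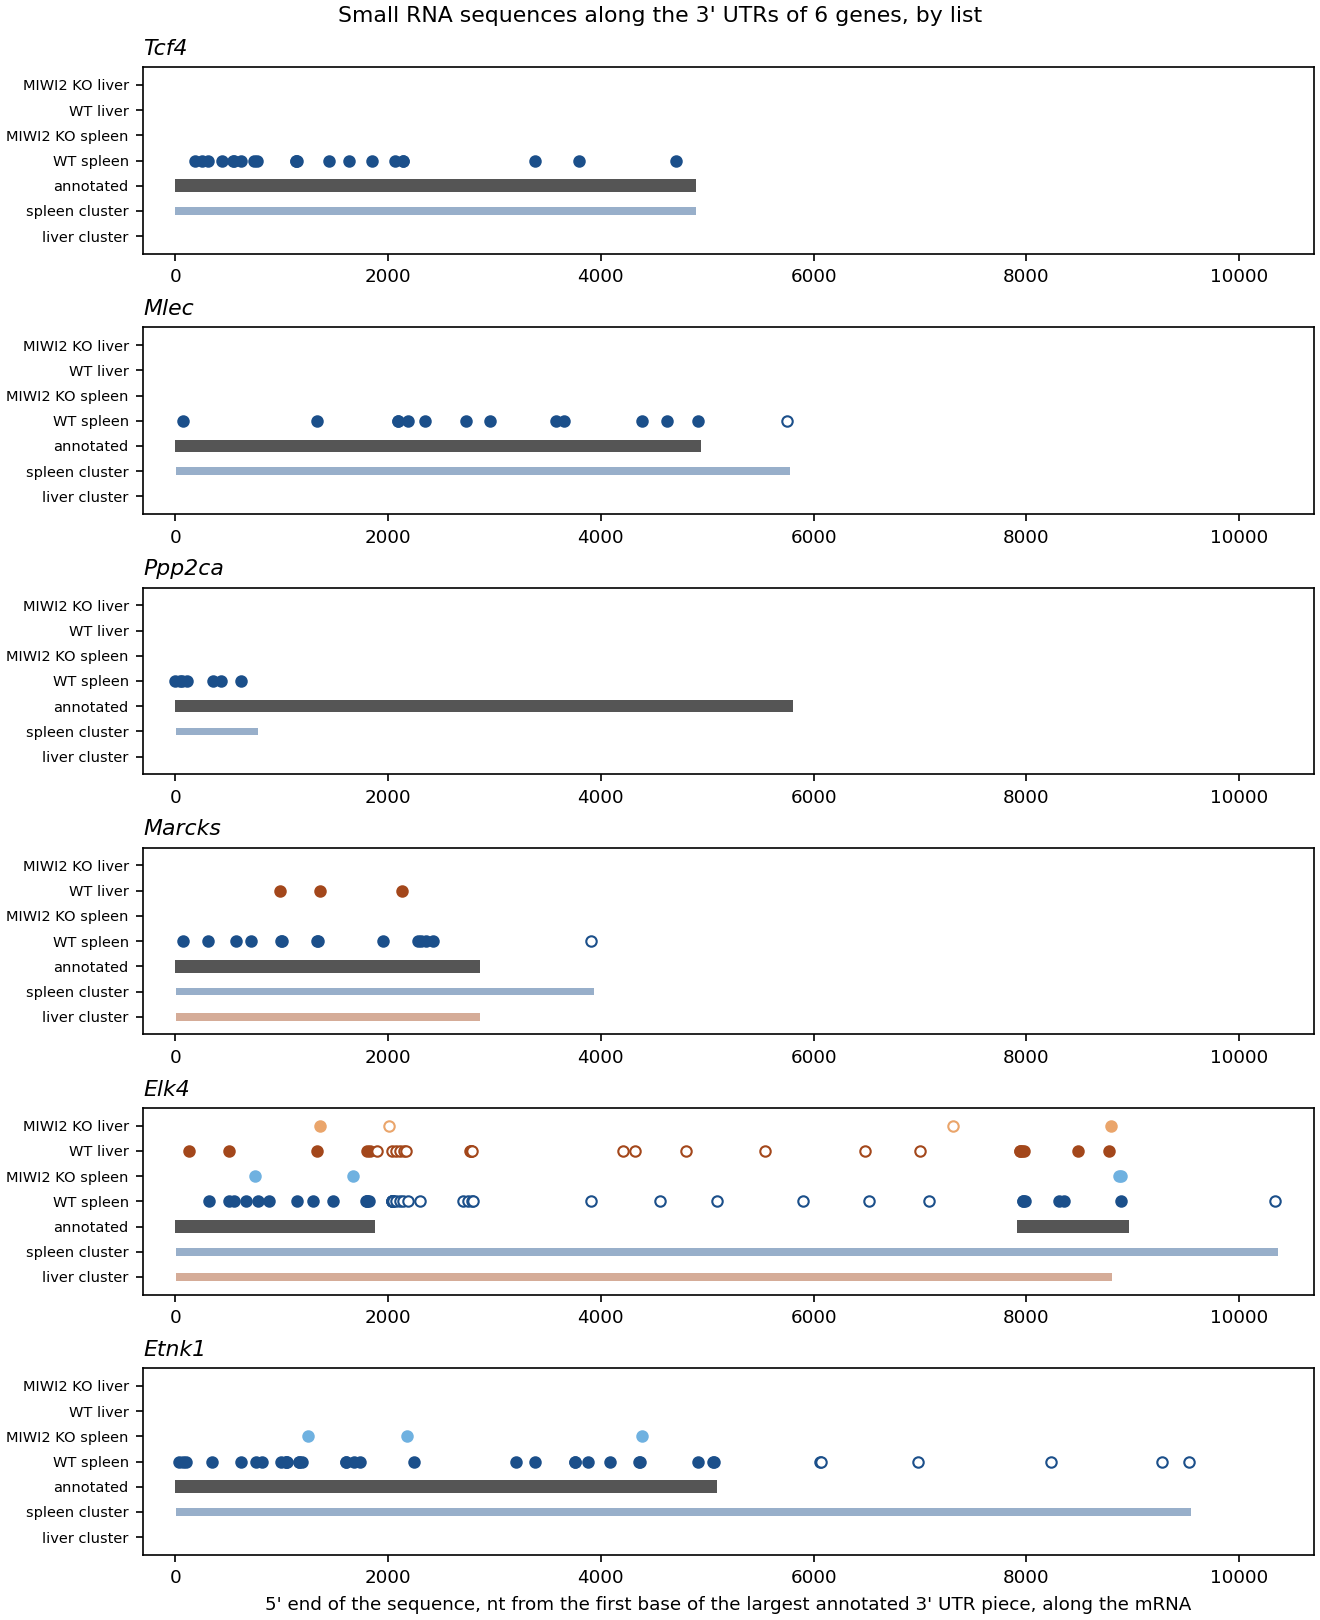
The 5' end of each listed sequence, in nt along the mRNA from the first base of the largest annotated 3' UTR piece, by list. Filled points lie in annotated 3' UTRs (dark bars), open points lie in the authors' cluster regions (pale bars) outside them. The last Ppp2ca 5' end is at nt 615, and Elk4 has sequences in all 4 lists.

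Little of each 3' UTR was covered. The shares are of all annotated bases, and for Ppp2ca the authors' region was only 775 of 5807 nt. WT spleen sequences covered 13.7% of the annotated bases of Elk4, 12.1% of Etnk1, 10.1% of Marcks, 5.98% of Mlec and 2.91% of Ppp2ca, and in Tcf4 they covered 441 of 4898 bases. Most lay apart from each other: the 21 Tcf4 sequences formed 17 separate stretches, the 13 of Mlec 12, the 13 of Marcks 11 and the 30 of Etnk1 23. The largest stretch held 4 sequences, in Elk4. The longest interval between neighbouring 5' ends was 6145 nt in Elk4, across the stretch between its annotated pieces, 1259 nt in Mlec and 1238 nt in Tcf4.

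Shared 5' ends were rare. The 103 WT spleen sequences began at 102 distinct 5' ends, and the single pair that shared one is the Etnk1 pair printed above, at nt 3760. Neighbouring 5' ends at most 2 nt apart occurred 3 times in Elk4, 1 time each in Tcf4 and Etnk1, and 0 times in Mlec, Ppp2ca and Marcks. In WT liver, 2 Elk4 sequences shared a 5' end at nt 7941.

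Between lists, Elk4 alone had 5' ends in common within the annotated 3' UTR. Of its 10 distinct WT liver ends, 2 were WT spleen ends too, at nt 503 and 1799, and 5 of the 11 WT liver sequences overlapped a WT spleen sequence. Of 4 MIWI2 KO spleen ends, 1 was a WT spleen end, at nt 8893, close to the end of the second annotated piece at nt 8964. The 3 MIWI2 KO spleen ends of Etnk1, at nt 1253, 2181 and 4389, were not among its 29 WT spleen ends. The 3 WT liver ends of Marcks were not among its 13 WT spleen ends, although 2 of the 3 sequences overlapped WT spleen sequences. No sequence within the annotated 3' UTRs was identical between lists.

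Elk4 differed from the other genes in that most of its WT sequences lay outside the annotated 3' UTR. GENCODE M1 gives it 2 pieces, chr1:133920226-133922101 and chr1:133928141-133929189, from separate isoforms, with 6039 nt between them. The authors' spleen region, chr1:133920229-133930585, runs over all of it. In WT spleen, 13 sequences lay in the first piece, 21 between the pieces, 6 in the second piece and 1 past it, 41 in all. WT liver had 5, 16, 6 and 0, 27 in all. MIWI2 KO spleen had 2, 0, 2 and 0, and MIWI2 KO liver 1, 2, 1 and 0. The same 23 nt sequence from between the pieces, in a group of 6 WT spleen sequences that began at nt 2038 to 2043, was in both WT lists.
WT spleen and WT liver chr1:133922264-133922286: tcaagagtctgaactagcctcaA

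The Elk4 3' UTR lies within Mfsd4, a protein-coding gene on the minus strand, which has 3' UTR pieces of its own between those of Elk4. Of the 22 WT spleen sequences outside the annotated Elk4 pieces, 2 lay in a Mfsd4 3' UTR piece, as did 3 of the 16 in WT liver. Read in the direction of Elk4, 10 of the 12 WT spleen sequences with a mismatch in this stretch and 5 of 5 in WT liver ended in an unmatched A, and 1 and 0 had an unmatched first base.

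The 50% limit left few doubtful members. Of the 126 sequences, 2 lay partly outside an annotated 3' UTR, 1 of Ppp2ca with 23 of 28 nt inside, which spans the stop codon and is printed above, and 1 of Etnk1 with 23 of 24 nt inside, which ended 1 nt past the annotated end. The nearest sequences outside the limit were of Elk4 and began 19 nt past the first piece in WT liver, 131 nt in MIWI2 KO liver and 162 nt in WT spleen.

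The last sequence of Mlec ended 3 nt before the annotated 3' end, and that of Etnk1 reached it. Both hold AATAAA, the hexamer of the poly(A) signal. The last Ppp2ca sequence, 5169 nt before the annotated end, held the hexamer too. They are shown as the last WT spleen sequences within the annotated 3' UTRs of Mlec, Etnk1 and Ppp2ca. The last WT spleen sequences of Tcf4, Marcks and Elk4 did not hold the hexamer.
Mlec chr5:115592993-115593014, minus strand: ttttaataaacaatttgcagtA
Etnk1 chr6:143157040-143157063, plus strand: aacaataaagttgagttctaacta
Ppp2ca chr11:51936088-51936111, plus strand: ttttcataataaacttgagaactA

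AATAAA, searched on the strand of the gene, was in 5 of 103 WT spleen sequences, 3 of them in Etnk1. This was 4.85% (1.60 to 11.0) against 5.73% of 1919 sequences from the other genes. Of all windows of 24 nt in the annotated 3' UTRs of the 6 genes, 1.83% held it.

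The listed lengths centred on 24 nt. Over the 103 WT spleen sequences the median and the commonest length were both 24 nt. The medians per gene were 24 nt in Tcf4, Mlec, Ppp2ca and Marcks, 24.5 nt in Etnk1 and 26 nt in Elk4. The shortest sequence was 18 nt, in Tcf4 and Mlec, and the longest 33 nt, in Elk4 and Etnk1. Elk4 had as many as 9 of 19 sequences of 27 nt or longer, against 6 of 21 in Tcf4, 3 of 13 in both Mlec and Marcks, 3 of 7 in Ppp2ca and 7 of 30 in Etnk1. In the other lists the Elk4 medians were 22 nt in MIWI2 KO spleen, and 24 nt in WT liver and in MIWI2 KO liver.

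Compared with the other WT spleen sequences in annotated 3' UTRs (1919, without those in the Mir21 gene), the lengths did not differ beyond the test. Sequences of 21 to 25 nt made up 63.1% in the 6 genes (53.0 to 72.4) and 62.3% in the others (60.1 to 64.5), a difference of 0.783 percentage points with an adjusted p = 0.917 (two-sided Fisher's exact test, Benjamini-Hochberg over 5 tests). Those of 27 nt or longer made up 30.1% (21.5 to 39.9) and 21.5% (19.7 to 23.4). This difference of 8.63 points had p = 0.0496 in the exact test and an adjusted p = 0.248, which did not pass 0.05.

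**Figure D3:**
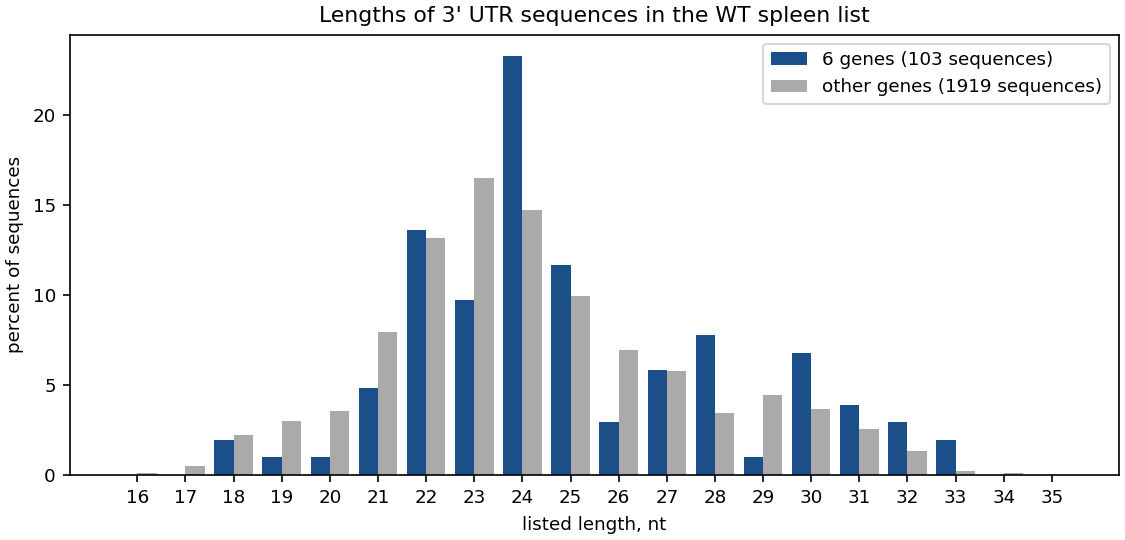
Listed length in nt (x axis) of WT spleen sequences in annotated 3' UTRs, as percent of the 103 sequences of the 6 genes and of the 1919 of the other genes. Both have most of their sequences at 22 to 25 nt, and the share at 27 nt or longer is 30.1% and 21.5%.

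A was the commonest 5' base in 5 of the 6 genes. Among distinct 5' ends in WT spleen, it was first in 12 of 21 ends in Tcf4, 6 of 13 in both Mlec and Marcks, 10 of 19 in Elk4 and 13 of 29 in Etnk1. Ppp2ca had 0 of 7 with A and 4 of 7 with U. Over the 102 ends, 46.1% began with A (36.2 to 56.2), where A makes up 27.4% of the same 3' UTRs. The excess of 18.7 percentage points passed the test (two-sided exact binomial test, adjusted p = 8.11e-05 over 3 tests). U was first in 31.4% (22.6 to 41.3) and makes up 31.9% of the 3' UTRs, with an adjusted p of 1.0 in the same exact test. G was first in 6 of the 102 ends, or 5.88%, where it makes up 22.2%, and C in 16.7%, where it makes up 18.5%. G and C were not tested. Ends of the same gene and library are not independent replicates, but the test treats them as independent. These p-values may therefore overstate the evidence, and with 1 library they give no replicate check.

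The base before the 5' end also stood out. A break between U and A, the UpA step, lay at 24 of the 102 ends, which is 23.5% (15.7 to 33.0). UpA makes up 6.26% of neighbouring bases in the same 3' UTRs, so the excess was 17.3 points (two-sided exact binomial test, adjusted p = 4.41e-08). All UpA ends begin with A, so this excess and that of 5' A overlap. Per gene, the step lay at 5 of 13 ends in Mlec, 8 of 29 in Etnk1, 4 of 13 in Marcks, 4 of 21 in Tcf4, 3 of 19 in Elk4 and 0 of 7 in Ppp2ca. Over the other genes of the WT spleen list, UpA lay at 11.6% of 1742 ends. Its difference from the 6 genes was not tested.

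**Figure D4:**
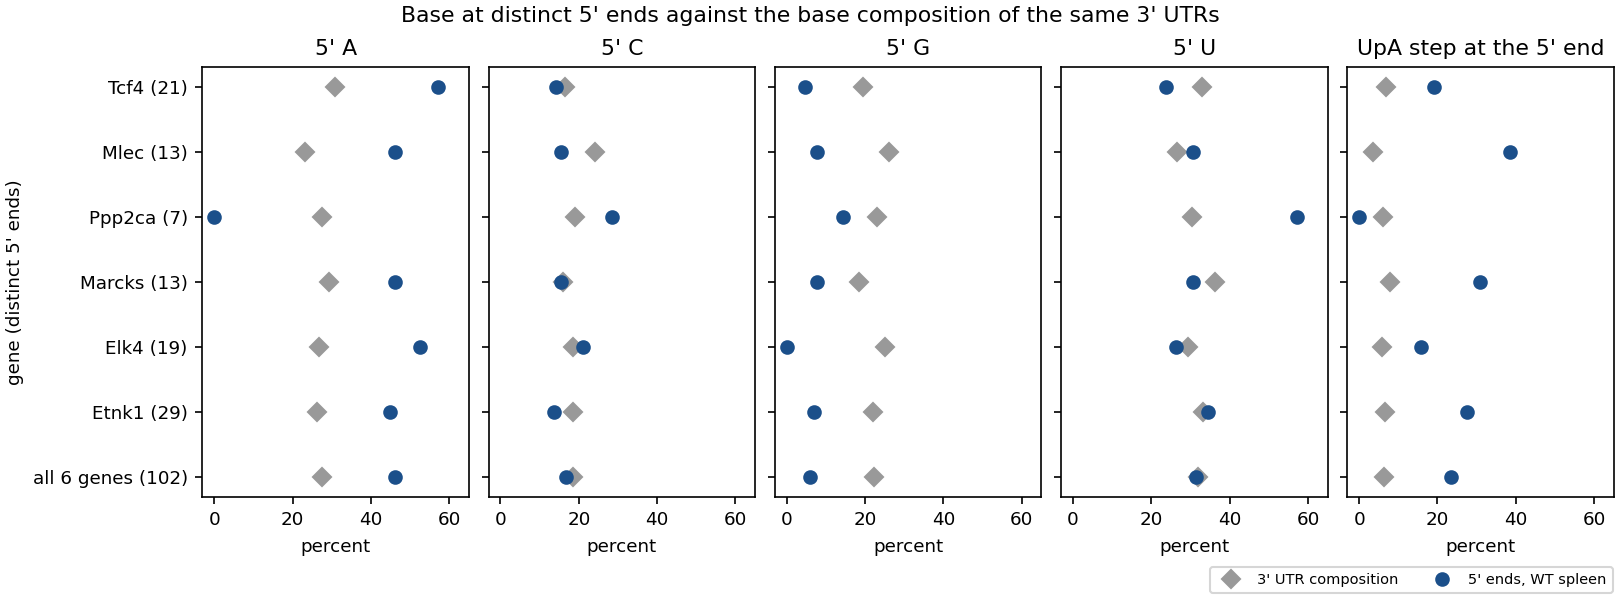
Percent of distinct WT spleen 5' ends with each base, and with a UpA step, for each gene and for all 6 (circles), beside the composition of the same annotated 3' UTRs (diamonds). A lies right of its diamond in 5 genes and at 0 in Ppp2ca, and over all 6 genes A is at 46.1% against 27.4%, and UpA at 23.5% against 6.26%.

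The share of 5' A in the 6 genes did not differ from that in the other genes beyond the test. The other genes were not compared with the composition of their own 3' UTRs. A was first in 45.6% of their 103 sequences (35.8 to 55.7) and in 42.1% of the 1919 of the other genes (39.8 to 44.3), with an adjusted p = 0.793 in Fisher's exact test. U was first in 32.0% and 33.1%, with an adjusted p = 0.917 in the same exact test. An unmatched A at the 3' end was found in 49.5% and 44.8%, with an adjusted p = 0.793 in the same exact test. An A at the 3' end, matched or not, was found in 90.3% and 84.9%.

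Outside WT spleen the numbers were too small to compare bases. In MIWI2 KO spleen 0 of 7 sequences began with A and 5 with U, 3 in Elk4 and 2 in Etnk1. In WT liver A was first in 7 of the 11 Elk4 sequences and in 0 of the 3 Marcks sequences.

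Of genes that act with these 6, few had a listed sequence, as is so of genes in general: 3.62% of 21826 protein-coding genes with an annotated 3' UTR had 1 or more in any list. None of 6 E proteins and their inhibitors (Tcf3, Tcf12 and Id1 to Id4), 8 other subunits of protein phosphatase 2A, 4 genes for a MARCKS relative and protein kinase C, 6 other genes of phosphatidylethanolamine synthesis and 5 genes of glycoprotein folding in the endoplasmic reticulum had a sequence. Of Elk1, Elk3 and Srf, Elk3 had 4 sequences in WT spleen and 0 in the other lists. Elk3, like Elk4, encodes a ternary complex factor. Together 1 of 32 such genes had a listed sequence, which is near that share.

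The genes with the most similar profile over the 4 lists were taken from 138 other genes with at least 5 WT spleen sequences, by the distance between square roots of each gene's shares of its list-scaled sequences. Marcks was nearest to Aff1, with 10 WT spleen and 3 WT liver sequences, at a distance of 0.0455. Elk4 was nearest to Mbnl1, with 49 in WT spleen, 10 in MIWI2 KO spleen, 15 in WT liver and 7 in MIWI2 KO liver, at a distance of 0.111. Etnk1 was nearest to Osbpl8, whose 10 WT and 1 MIWI2 KO spleen sequences have the same ratio. Tcf4, Mlec and Ppp2ca have sequences in WT spleen only and shared that profile with 49 genes. By closeness of the count, Bbx with 8 sequences was taken for Tcf4 and Mlec, and Acta2 with 7 for Ppp2ca.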

How the data were processed

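Small RNAs of WT and MIWI2 KO liver and spleen were gel purified, at about 24 to 31 nt per the labels (the study's methods give a wider range), and cloned with the Illumina Small RNA v1.5 kit. The authors trimmed the 3' adapter, kept each sequence once, filtered out known non-coding RNAs, aligned the rest to mm9 with Bowtie (up to 1 mismatch, unique places only), and deposited the distinct sequences in somatic 3' UTR clusters. The lists hold no read numbers, so common and rare RNAs weigh the same. The processing notes also name CASAVA 1.8, cutadapt and bedtools. The other 2 files hold the authors' cluster regions, by RefSeq accession, which were given symbols by a RefSeq table of another build.

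Sequences were placed on NCBIM37 by a program in Python 3.11.15 (numpy 2.4.6, numba 0.67.0), tested on simulated data. Each of the 7845 had a single best place. A sequence belonged to a gene when 50% or more of its bases lay in a GENCODE M1 3' UTR of that gene. Sequences lying in 3' UTRs on opposite strands did not enter the comparisons with other genes. Library depth was taken from the study's numbers of uniquely aligned distinct sequences. Distinct 5' ends were compared with the composition of the same 3' UTRs, weighted by ends per gene (two-sided exact binomial tests), and the 6 genes with other genes of the WT spleen list (two-sided Fisher's exact tests, scipy 1.17.1), both Benjamini-Hochberg adjusted with a threshold of 0.05. Alternatives were exact matches, full or any overlap, 2 kb downstream, length classes, 1 sequence per 5' end, Mir21 kept, the gene with most sequences left out, and, chosen after seeing the data, the authors' regions.

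The members and lists were chosen with earlier results of these data known. The genes named are the 6, the gene nearest to each in profile, and related genes. Sequences printed are those of at most 30 nt at the most shared 5' end of each gene, not for chromosome 18, and others picked after their values were seen. A marker of the spleen list is not reported here.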

Additional observations from a re-analysis of the deposited data

Results flagged for a closer look

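With 1 library a group, no sample could be tested as an outlier. Sequences in the authors' cluster regions but outside the annotated 3' UTRs were not used in the main comparisons, only under some of the alternatives. Of such groups, 3 exceeded the 3 sequences that a count of 0 allows. At Elk4 there were 22 in WT spleen and 16 in WT liver, most of them between the annotated pieces, in the stretch that lies within Mfsd4 on the other strand. At Etnk1 there were 6 in WT spleen, which began between nt 6058 and 9523, past the annotated end at nt 5089. Whether these stretches belong to the same transcripts as the annotated 3' UTRs was not tested.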

How the results depend on the processing

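No paired analysis was possible because each tissue and genotype has 1 library, and no library could be left out for the same reason. The excess of 5' A and of UpA at WT spleen 5' ends kept its direction under all 8 alternatives, and stayed past the threshold in 7 of them. Among sequences of 27 nt or longer, which have 31 ends, the excesses were 17.7 and 9.90 percentage points with adjusted p = 0.0622 in exact tests. None of the other comparisons passed the threshold under any alternative. The differences that changed sign were far from it, and most of them were small. For 5' U against the composition, they became 0.475 points with 2 kb downstream added, 0.161 with every sequence counted, 7.21 for 27 nt or longer, and 1.45 in the authors' regions. Against other genes, 5' A became -0.888 and 21 to 25 nt became -0.146 with exact matches. In the same comparison, 21 to 25 nt became -2.05 without Etnk1 and -0.12 with Mir21 kept, and 5' U became 0.234 in the authors' regions. The adjusted p for 27 nt or longer against other genes ranged from 0.0551 with Mir21 kept to 0.730 in the authors' regions. Exact matches lowered the WT spleen counts to 10 in Tcf4, 5 in Mlec, 4 in Ppp2ca, 5 in Marcks, 7 in Elk4 and 10 in Etnk1, since the unmatched A is common, and left no unmatched A to test. The authors' regions raised Elk4 to 41 in WT spleen and left it at 4 in MIWI2 KO spleen. This lowers its ratio of MIWI2 KO to WT spleen from above 1 to below 1. Adding 2 kb downstream gave Elk4 20 only, since 15 of the 16 sequences in this stretch also lay in or downstream of a Mfsd4 3' UTR on the other strand and were left out.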
